A study of Mus musculus with 24 samples.

Results

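The copper response of C2C12 myoblasts that carry a scrambled control shRNA (scr) was measured by RNA sequencing. C2C12 is an immortalized mouse myoblast line. It was compared between 2 libraries from cells grown with 100 µM CuSO4 for 48 h (Cu) and 2 libraries from cells without added metal (NT), 4 of the 24 libraries of the series. Library titles set the groups, since the treatment field of the labels disagrees with the titles and with the design. The 2 scr libraries from cells with 50 µM ZnSO4 for 48 h (Zn) entered the same fit, where they add to the estimate of the spread and serve as a second metal. The other 18 libraries come from cells depleted of *Baf180*, *Baf250a* or *Brd9* (knockdown, KD), subunits of the SWI/SNF chromatin remodelling complexes. The 12 Cu and NT libraries among them were used to look at the same genes in samples that share no library with scr. They were fitted together with the 4 scr Cu and NT libraries, which thus enter the estimate of the spread behind the KD p-values. The methods describe cells transduced with shRNA by lentivirus and 2 independent biological replicates per condition, while the labels describe knockdown by lipofection of primary myoblasts. The methods' description is followed here, and all cells carry an shRNA, the NT controls included.

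Copper is a cofactor of cytochrome c oxidase, lysyl oxidases and superoxide dismutase, and free copper ions take part in redox reactions that damage lipids and proteins. Cells import copper through CTR1 (*Slc31a1*), pass it to chaperones, export it through ATP7A, and bind the excess with metallothioneins and glutathione. The metal-sensing factor MTF1 drives metallothionein and zinc exporter genes through metal response elements (MRE), and the oxidant-sensing factor NRF2 drives glutathione and thioredoxin genes through antioxidant response elements (ARE).

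Between 16520069 and 44746359 counts were assigned to genes in the Cu and NT libraries, and genes with at least 1 count numbered from 20114 to 23789. Levels are given as CPM, counts scaled to a common library total after TMM normalization, which balances library composition, and differences as log2 fold changes from edgeR's quasi-likelihood test. A gene with a Benjamini-Hochberg adjusted p under 0.05 over all genes tested is called a differentially expressed gene (DEG). The NT libraries stood apart in one respect: the ribosomal RNA (rRNA) gene *CT010467.1* took 4.57% and 1.61% of all counts in them, against 0.139% and 0.179% in the Cu libraries. The 4 libraries also differed in how their levels ran with the GC content of genes, with a slope per 10 percentage points of GC of 0.12 and 0.36 on the log2 scale in NT and of 0.16 and -0.08 with Cu. All 10 myoblast markers examined were above 1 CPM on average, and their summed level lay between 4040 and 4670 CPM with Cu and between 4520 and 5060 CPM in NT. Of 8 markers each, only 1 adipocyte, 2 endothelial, 1 leukocyte, 1 neural and 1 bone or cartilage marker reached 1 CPM. The bone and cartilage markers still summed to between 97.1 and 131 CPM with Cu and between 99.1 and 105 CPM in NT. The sums of the other non-muscle marker sets were at most 21.8 CPM. The targeted genes *Pbrm1*, *Arid1a* and *Brd9* were lower in all 4 Cu and NT libraries of their KD line than in any of the 4 scr libraries.

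Cu was followed by few calls in scr cells. Of 15002 genes tested, 5 were DEGs (0.0333%), of which 1 was higher (0.00667%) and 4 were lower (0.0267%). At an unadjusted p under 0.05 there were 1559 genes (10.4%), 888 higher (5.92%) and 671 lower (4.47%). Both Cu libraries lay above both NT libraries in 2570 genes (17.1%) and below both in 2778 genes (18.5%). Groups without overlap were thus common among all genes. *Gpr137b*, which encodes a lysosomal membrane protein, was higher, and *Islr*, which encodes a leucine-rich repeat protein with an immunoglobulin domain, was lower. In bulk RNA, less RNA per cell and fewer cells that express a gene cannot be told apart. The remaining 3 genes, *Mir6236*, *Gm15564* and *Lars2*, were lower by far more than these and are described next, with the rRNA-derived genes. The number of DEGs was 143 without Cu replicate 1, 6 without Cu replicate 2, 11 without NT replicate 1 and 7 without NT replicate 2. Among all genes, those higher and lower at an unadjusted p under 0.05 numbered 1958 and 946 without Cu replicate 1, 810 and 842 without Cu replicate 2, 1677 and 928 without NT replicate 1, and 316 and 331 without NT replicate 2, and list counts without a library stand against these.

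*Mir6236* is annotated as a microRNA gene (chromosome 9, from 110281287 to 110281409, GRCm38) and was at 63.6 and 55.9 CPM in the NT libraries and at 0.676 and 0.242 CPM in the Cu libraries. Both Zn libraries were at or below 0.075 CPM, so the 2 NT libraries were the high ones among the 6. The log2 fold change was -7.30 ± 0.28 (SE) at an edgeR adjusted p of 0.000200. *Gm15564*, an antisense transcript (chromosome 16, from 35966752 to 35983230), was at 120.2 and 64.1 CPM in NT and at 0.733 and 0.176 CPM with Cu, and the log2 fold change was -8.05 ± 0.58 (SE) at an edgeR adjusted p of 0.00804. *Lars2*, the gene of the mitochondrial leucyl-tRNA synthetase (chromosome 9, from 123366927 to 123462666), was at 1345 and 616 CPM in NT, 33.4 and 29.6 CPM with Cu and 25.1 and 31.3 CPM with Zn. Its log2 fold change was -4.96 ± 0.37 (SE) at an edgeR adjusted p of 0.00804. In all 3 genes both NT libraries lay above the other 4 scr libraries.

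The mature miRNA is shown as the product named for the DEG of lowest p, and the other sequences because they recur in a pair of these genes, while only uniquely mapped reads were counted. The mature miR-6236 of RefSeq (GRCm38.p6, chr9:110281353-110281371, + strand) has its seed, bases 2 to 8, in capitals, and no other mature miRNA of the table has that seed. *Gm24187* and *Gm23935*, both 57 bases long, share the 46 bases in capitals, and *Gm15564* and *Lars2* share a run of 52 bases. The 30 bases in its middle are given as they stand in an exon of *Gm15564* (chr16:35981756-35981785, - strand), and in *Lars2* the run falls after the coding sequence. The transcript sequences are those of GENCODE M21.
mmu-miR-6236: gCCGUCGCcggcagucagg
Gm24187: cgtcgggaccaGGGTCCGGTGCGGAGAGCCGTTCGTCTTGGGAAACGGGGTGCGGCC
Gm23935: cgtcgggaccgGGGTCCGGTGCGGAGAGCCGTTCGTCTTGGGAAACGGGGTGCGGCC
Gm15564: GCGTTGGATTGTTCACCCACTAATAGGGAA

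The list of 21 rRNA-derived and structural RNAs held 16 genes that could be tested, and all 16 had a negative log2 fold change with a median of -2.16, against 0.01 over all genes tested. Of these 2 were DEGs and 9 had an unadjusted p under 0.05. *CT010467.1* (chromosome 17, from 39846353 to 39848827) was at 46805 and 16301 CPM in NT and at 1415 and 1759.7 CPM with Cu, and the log2 fold change was -4.31 ± 0.47 (SE) at an edgeR adjusted p of 0.0596. *Gm24187* had a log2 fold change of -7.62 ± 0.89 (SE) at an edgeR adjusted p of 0.0800 and *Gm23935* one of -5.21 ± 0.73 (SE) at an edgeR adjusted p of 0.149. *Gm10800*, annotated as protein-coding, fell in the same group of values, at 45.7 and 6.98 CPM in NT and 0.225 and 0.528 CPM with Cu. The mitochondrial rRNA genes *mt-Rnr1* and *mt-Rnr2* had log2 fold changes of -3.93 and -2.83 with adjusted p of 0.254 and 0.397 in edgeR. The next values are on the scale of all 24 libraries. The structural RNA *Rny1* was at 75.7 and 387 CPM in NT and between 27.5 and 35.1 CPM with Cu. *Rny3*, another one, was at 81.1 and 372 CPM in NT and between 25.4 and 33.3 CPM with Cu. By contrast, *Rn7sk*, an abundant structural RNA, lay between 6640 and 8111 CPM in NT and between 6160 and 7401 CPM with Cu. Only the groups of *Rn7sk* overlapped among these structural RNAs.

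**Figure D1:**
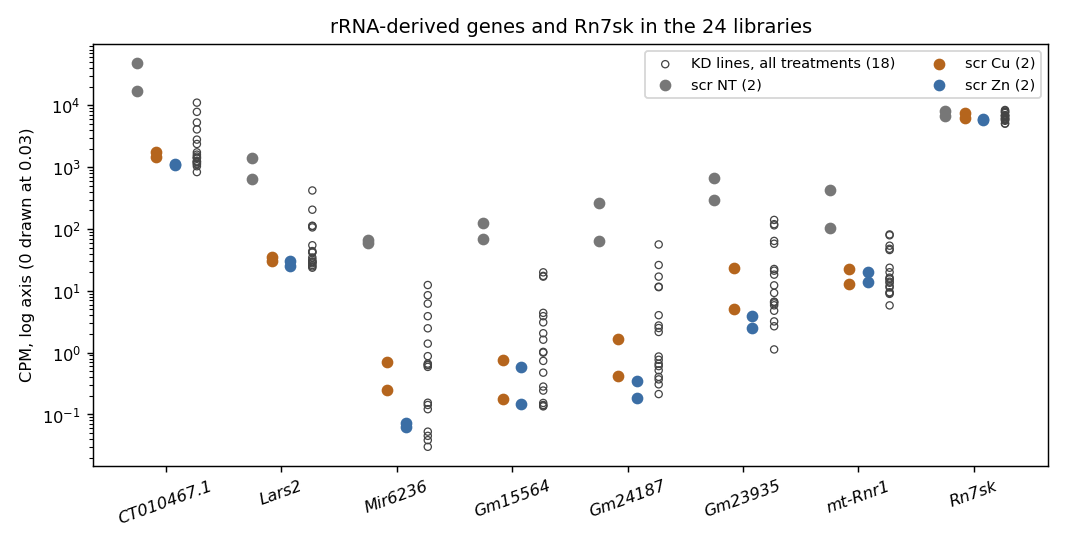
Level of 8 genes in each of the 24 libraries, in CPM on a log axis with 0 drawn at 0.03, by cell line and treatment; each point is 1 library. Both NT libraries of scr lie above all 22 other libraries for every gene shown but *Rn7sk*.

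Set against all other 22 libraries of the series, the 2 NT libraries of scr were the high ones. On the scale of all 24 libraries, *CT010467.1* was at 48156 and 17255 CPM in them and at most 11066 CPM elsewhere, *Lars2* at 1384 and 652 CPM against at most 420.1 CPM, and *Gm15564* at 124 and 67.9 CPM against at most 19.9 CPM. Over those 22 libraries, which differ in line and treatment, the level of *Lars2* ran with that of *CT010467.1* (Spearman correlation 0.81), and those of *Mir6236* (0.74) and *Gm15564* (0.62) did so too. The response of these genes to Cu went in different directions between the KD lines: *Mir6236* had log2 fold changes of -6.26 in *Baf180* KD, 4.22 in *Baf250a* KD and 2.81 in *Brd9* KD cells. The part of the amount of rRNA left in a library in these 3 DEGs was not tested beyond these values. With the whole list removed before normalization, 3 DEGs were called (*Gpr137b*, *Islr* and *Lars2*, which is not on the list).

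*Gpr137b* (chromosome 13, from 13357620 to 13394014) was at 53.3 and 48.6 CPM with Cu and at 23.5 and 21.3 CPM in NT, with the Zn libraries between them at 31.5 and 31.0 CPM. Both Cu libraries were above every other scr library. The means were 50.9 ± 3.36 and 22.4 ± 1.60 CPM (SD, n = 2), and the log2 fold change was 1.19 ± 0.10 (SE) at an edgeR adjusted p of 0.0171. GPR137B acts at the lysosome, where it interacts with Rag GTPases of the mTORC1 pathway. A pseudogene copy, *Gpr137b-ps*, which was named after its value was seen, had a log2 fold change of 0.87 with an adjusted p of 0.175 in edgeR, and since only uniquely mapped reads were counted, reads can be split between the copies. Without NT replicate 1 the edgeR adjusted p of *Gpr137b* was 0.0671, and without NT replicate 2 it was 0.179. It was 0.0738 when only the 4 Cu and NT libraries were fitted, and after a correction for GC content and transcript length the value was 1.22 ± 0.09 (SE) at an edgeR adjusted p of 0.00712. In KD cells *Gpr137b* was higher with Cu in each line, by 0.69 in *Baf180*, 0.72 in *Baf250a* and 0.88 in *Brd9* KD cells, and the mean of the 3 was 0.77 ± 0.05 (SE) at an edgeR adjusted p of 7.18e-07.

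*Islr* (chromosome 9, from 58156268 to 58204306) was at 8.62 and 7.95 CPM with Cu, at 18.8 and 21.1 CPM in NT and at 16.8 and 16.4 CPM with Zn. Both Cu libraries were below every other scr library. The means were 8.28 ± 0.478 with Cu and 20.0 ± 1.61 CPM in NT (SD, n = 2), and the log2 fold change was -1.28 ± 0.12 (SE) at an edgeR adjusted p of 0.0285. Direct comparison with Zn gave -1.01 ± 0.12 (SE) at an edgeR adjusted p of 0.0761, which did not pass the threshold. Leaving out 1 library gave *Islr* an edgeR adjusted p of 0.0858 without Cu replicate 2, 0.0704 without NT replicate 1 and 0.189 without NT replicate 2. It was 0.123 when only the 4 Cu and NT libraries were fitted, and the GC-corrected value was -1.14 ± 0.10 (SE) at an edgeR adjusted p of 0.0111. In KD cells *Islr* was lower with Cu as well, with a mean log2 fold change of -0.45 ± 0.05 (SE) at an edgeR adjusted p of 0.000138. By line it was -0.52 in *Baf180* (edgeR adjusted p = 0.00687), -0.23 in *Baf250a* (0.467, not called) and -0.60 in *Brd9* KD cells (0.0108).

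**Figure D2:**
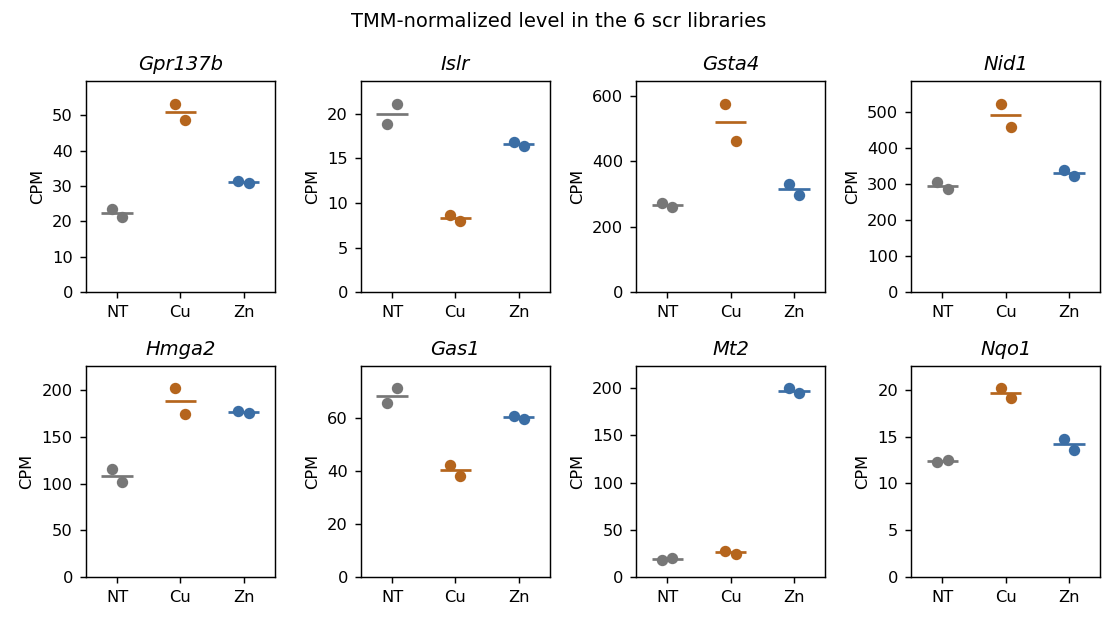
Level of 8 genes in the 6 scr libraries, in CPM on linear axes that start at 0; points are single libraries and bars are means of 2 libraries. *Gpr137b*, *Gsta4*, *Nid1* and *Nqo1* were highest with Cu, *Islr* and *Gas1* lowest with Cu, *Mt2* highest with Zn, and *Hmga2* had its Zn libraries within the range of its Cu libraries.

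The fold changes with Cu ran with the GC content of genes. Over 10502 protein-coding genes, the log2 fold change had a Spearman correlation of -0.58 with GC content in scr cells and of 0.52 in the mean of the KD lines, and for Cu against Zn in scr it was 0.63, a description across genes that share their libraries. In scr cells the median was 0.41 for the 625 genes of at most 40% GC and -0.10 for the 409 genes above 60% GC. In the KD lines the same groups had medians of -0.29 and 0.12. A fit that takes out the trend of each library on GC content and transcript length (GC-corrected) brought the correlation to -0.01 in scr and 0.01 in the KD lines.

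**Figure D3:**
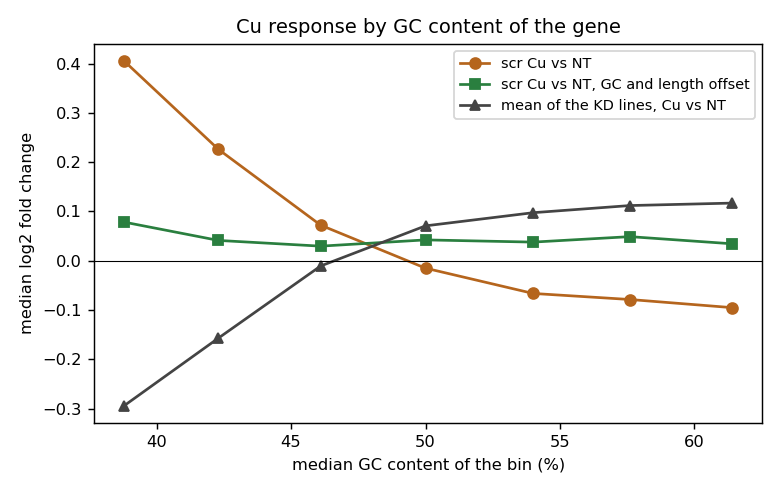
Median log2 fold change of protein-coding genes with Cu (y axis) in 7 bins of GC content (x axis, median GC of the bin in percent), for scr before and after the GC and length correction and for the mean of the KD lines. The scr line falls from 0.41 to -0.10 and the KD line rises from -0.29 to 0.12, while the corrected scr line stays between 0.03 and 0.08.

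After this correction 10 of 14705 genes were DEGs (0.068%), 5 higher (0.034%) and 5 lower (0.034%), among them all 5 called without it, and 1512 genes had an unadjusted p under 0.05 (10.3%). *Gsta4* (chromosome 9, from 78182774 to 78209349) encodes the glutathione S-transferase that conjugates 4-hydroxynonenal, a product of lipid peroxidation. It was at 575 and 461 CPM with Cu, 271 and 259 CPM in NT and 331 and 296 CPM with Zn, so that both Cu libraries were above all others. The corrected log2 fold change was 1.06 ± 0.10 (SE) at an edgeR adjusted p of 0.0200, and the uncorrected one was 0.97 ± 0.12 (SE) at an edgeR adjusted p of 0.118. *Nid1*, nidogen-1 of the basement membrane (chromosome 13, from 13437551 to 13512269), was at 523 and 458 CPM with Cu and 305 and 285 CPM in NT, with a corrected log2 fold change of 0.75 ± 0.08 (SE) at an edgeR adjusted p of 0.0263 and an uncorrected one of 0.73 ± 0.10 (SE) at an edgeR adjusted p of 0.129. *Hmga2*, a chromatin architectural protein of growing cells (chromosome 10, from 120361275 to 120476469), was at 202 and 175 CPM with Cu and 115 and 101 CPM in NT, and its corrected log2 fold change was 0.75 ± 0.09 (SE) at an edgeR adjusted p of 0.0405, against 0.80 ± 0.11 (SE) at an edgeR adjusted p of 0.129 uncorrected. The Zn libraries of *Hmga2*, at 178 and 175 CPM, lay within the range of the Cu libraries.

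*Mt2*, a metallothionein (chromosome 8, from 94172664 to 94173568), was at 27.6 and 24.8 CPM with Cu and 17.7 and 19.6 CPM in NT. The groups did not overlap, with Cu above, as in 17.1% of all genes tested. The corrected log2 fold change of *Mt2* was 0.72 ± 0.08 (SE) at an edgeR adjusted p of 0.0405. The uncorrected one was 0.48 ± 0.10 (SE) at an edgeR adjusted p of 0.397. *Gas1*, a surface protein that binds hedgehog ligands (chromosome 13, from 60174405 to 60177365), was lower at 42.4 and 38.2 CPM with Cu against 65.7 and 71.2 CPM in NT, with a corrected log2 fold change of -0.63 ± 0.07 (SE) at an edgeR adjusted p of 0.0402 and an uncorrected one of -0.77 ± 0.10 (SE) at an edgeR adjusted p of 0.118. With the replicate number as a block beside the GC correction, *Mt2* and *Gas1* were not called (edgeR adjusted p = 0.100 for each), whereas *Gsta4*, *Nid1* and *Hmga2* were. In the KD lines, the mean GC-corrected responses of these 5 genes passed the threshold in the same direction, with edgeR adjusted p of at most 0.00916. The log2 fold changes were 1.05 for *Gsta4*, 0.64 for *Nid1*, 0.42 for *Hmga2*, 0.22 for *Mt2* and -0.42 for *Gas1*. Of all genes in that fit 6.91% were DEGs and higher and 5.79% were lower.

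**Figure D4:**
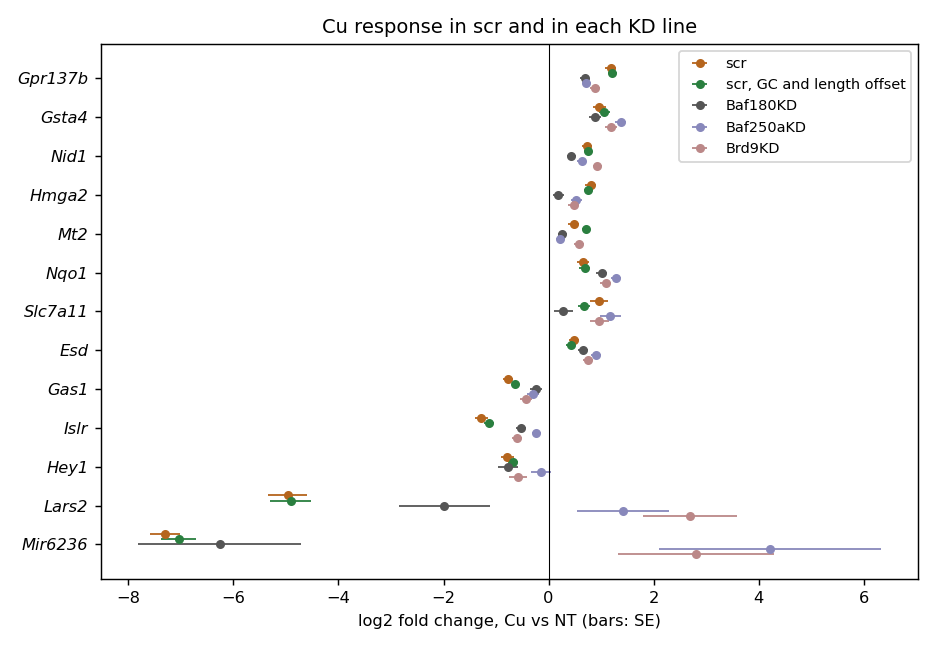
Log2 fold change with Cu (x axis, bars are SE from the edgeR fit) of 13 genes in scr, in scr after the GC and length correction, and in each of the 3 KD lines. *Gpr137b*, *Gsta4*, *Nid1*, *Hmga2*, *Mt2*, *Nqo1*, *Slc7a11* and *Esd* lie to the right of 0 in every line and *Gas1*, *Islr* and *Hey1* to the left, while *Lars2* and *Mir6236* differ in sign between the KD lines.

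The NRF2 pathway list, which holds NRF2 target genes and also the gene of NRF2 itself, had the most members at an unadjusted p under 0.05. All 35 listed genes were tested, 0 were DEGs before and 1 (*Gsta4*) after the GC correction. At an unadjusted p under 0.05, 15 were higher and 0 lower, against 5.92% and 4.47% of all genes, and 20 had both Cu libraries above both NT libraries against 17.1% of all genes. The median log2 fold change was 0.25, and 0.28 after the correction, when 22 members were higher and 0 lower at that p against 6.58% and 3.7% of all genes. With 1 library left out at a time, 12 to 17 members were higher and at most 2 lower at that p. In the KD lines 31 of the 35 were DEGs with Cu, all higher, against 8.27% of all genes there, and the median was 0.54.

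*Nqo1*, a quinone reductase (chromosome 8, from 107388225 to 107403206), was at 20.2 and 19.1 CPM with Cu and 12.3 and 12.5 CPM in NT, with a log2 fold change of 0.66 ± 0.11 (SE) at an edgeR adjusted p of 0.254, or 0.69 ± 0.10 (SE) at an edgeR adjusted p of 0.0880 after the GC correction. Both Cu libraries were above the other 4, but the difference did not pass the threshold over all genes. *Slc7a11*, the cystine importer that feeds glutathione synthesis, was at 34.4 and 43.1 CPM with Cu and 23.2 and 17.0 CPM in NT, with 44.6 and 38.8 CPM in the Zn libraries. Its log2 fold change was 0.96 ± 0.18 (SE) at an edgeR adjusted p of 0.301, and the Zn libraries overlapped the Cu libraries. After the GC correction the value of *Slc7a11*, which has a GC content of 40.7%, was 0.67 ± 0.11 (SE) at an edgeR adjusted p of 0.119. *Esd*, which hydrolyses S-formylglutathione, was at 324 and 297 CPM with Cu and 209 and 237 CPM in NT. Its log2 fold change was 0.48 ± 0.10 (SE) at an edgeR adjusted p of 0.394.

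Further members are named after their values were seen. *Srxn1*, sulfiredoxin, had 249.8 and 237 CPM with Cu and 175 and 182 CPM in NT, and *Gclc*, the catalytic subunit of glutamate-cysteine ligase, had 56.9 and 56.4 CPM with Cu and 43.7 and 41.7 CPM in NT. The log2 fold changes were 0.45 and 0.41. *Nfe2l2*, which encodes NRF2 itself, was at 119 and 86.3 CPM with Cu and 106 and 104 CPM in NT, and its repressor gene *Keap1* at 58.5 and 56.8 CPM with Cu and 61.9 and 71.5 CPM in NT. The *Nfe2l2* libraries overlapped, with a log2 fold change of -0.04 ± 0.14 (SE) at an edgeR adjusted p of 0.941.

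The promoter of *Srxn1* is shown because the gene is a NRF2 target whose Cu libraries lay above its NT libraries and whose promoter holds the ARE core. RefSeq promoters (GRCm38.p6), from 250 bases before to 50 bases after the start, were searched on both strands for TGACNNNGC, which was found in 12.4% of all 32851 promoters. Of the 35 genes, 28 had promoters in the table, 38 in all, and 14 of the 38 (36.8%) held a match. In *Srxn1* (chr2:152105274-152105573, + strand) the match, in capitals, lies on the opposite strand from base 28 to base 36 after the start.
Srxn1: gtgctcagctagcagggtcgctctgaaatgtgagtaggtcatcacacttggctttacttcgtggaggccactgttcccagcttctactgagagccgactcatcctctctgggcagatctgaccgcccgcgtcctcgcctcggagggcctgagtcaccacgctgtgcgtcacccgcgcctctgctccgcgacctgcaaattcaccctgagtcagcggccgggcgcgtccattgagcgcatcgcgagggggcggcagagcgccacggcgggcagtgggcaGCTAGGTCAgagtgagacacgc

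Of 16 glutathione S-transferase genes tested, 2 were higher at an unadjusted p under 0.05 (*Gsta4* and *Gsta2*) and 0 lower, against 5.92% and 4.47% of all genes, 5 were higher and 0 lower after the GC correction or without Cu replicate 2, and the median log2 fold change was 0.09, or 0.23 after the GC correction. *Gsta2* was at 6.59 and 6.36 CPM with Cu and 3.59 and 3.55 CPM in NT, and the log2 fold change was 0.86 ± 0.19 (SE) at an edgeR adjusted p of 0.433. Among 21 genes that remove peroxide and superoxide, catalase (*Cat*, log2 fold change 0.31) and thioredoxin reductase 1 (*Txnrd1*, 0.22) were at an unadjusted p under 0.05, and the list's median was -0.10, or 0.02 after the correction. Of 24 iron and heme genes, 5 were higher at that p and 0 lower, or 8 and 0 after the GC correction (6.58% and 3.7% of all genes), with a median of -0.03, or 0.03 after the correction, and without NT replicate 2 there were 3. They include *Hmox1*, heme oxygenase 1, at 83.5 and 70.1 CPM with Cu and 54.1 and 56.6 CPM in NT (0.47 ± 0.12 SE, adjusted p of 0.447 in edgeR), the iron exporter *Slc40a1* (0.49), the mitochondrial iron importer *Slc25a37* (0.38) and the transferrin receptor *Tfrc* (0.60). *Hmox1* was a DEG with Cu in the mean of the KD lines (0.88 ± 0.07 SE, adjusted p of 3.02e-06 in edgeR). There *Slc40a1* and *Tfrc* had values of 0.03 and -0.03 with edgeR adjusted p of 0.793 and 0.857. After the GC correction the KD values were 0.18 for *Slc40a1* (edgeR adjusted p = 0.116) and 0.22 for *Tfrc* (edgeR adjusted p = 0.00542). The corrected scr values were 0.30 for *Slc40a1* and 0.31 for *Tfrc* (edgeR adjusted p = 0.406 and 0.202). The corrected differences, scr minus KD, were 0.10 and 0.08 (edgeR adjusted p = 0.781 and 0.726).

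Among the genes that handle copper itself, of 17 copper transport and chaperone genes tested, 0 were DEGs. Of all genes 5.92% were higher and 4.47% lower at an unadjusted p under 0.05, and of these 17 genes 1 was at that p. This was *Cox17*, the chaperone that brings copper to cytochrome c oxidase, at 20.1 and 24.7 CPM with Cu and 30.5 and 26.7 CPM in NT (-0.34 ± 0.13 SE, adjusted p of 0.476 in edgeR). Both Cu libraries of *Cox17* were below both NT libraries, as in 18.5% of all genes tested. The gene was lower with Cu in the KD lines, at -0.65 (edgeR adjusted p = 0.000177). The importer *Slc31a1* was at 77.0 and 64.1 CPM with Cu and 63.7 and 69.1 CPM in NT, and the groups overlapped. Its log2 fold change was 0.09 ± 0.11 (SE) at an edgeR adjusted p of 0.793, and it was -0.04 after the GC correction. The exporter *Atp7a* was at 42.6 and 45.6 CPM with Cu and 42.7 and 32.4 CPM in NT, with 1 NT library between the Cu libraries, and had a log2 fold change of 0.24 ± 0.14 (SE) at an edgeR adjusted p of 0.536. In the mean of the KD lines *Atp7a* was lower with Cu (-0.33 ± 0.07 SE, adjusted p of 0.00560 in edgeR). By line it was -0.53 in *Baf180* KD cells (edgeR adjusted p = 0.0163), -0.07 in *Baf250a* KD cells (0.952) and -0.40 in *Brd9* KD cells (0.179). The difference, scr minus KD, was 0.55 ± 0.13 (SE) at an edgeR adjusted p of 0.0604. After the GC correction this difference was 0.37 ± 0.10 (SE) at an edgeR adjusted p of 0.146. The metal sensor *Mtf1* was at 49.2 and 48.5 CPM with Cu and 49.4 and 46.1 CPM in NT, and the groups overlapped (0.03 ± 0.10 SE, adjusted p of 0.918 in edgeR).

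Among 11 copper-dependent enzyme genes, 2 were higher and 2 lower at an unadjusted p under 0.05 (5.92% and 4.47% of all genes). The ferroxidase ceruloplasmin (*Cp*) had a log2 fold change of 0.57 and lysyl oxidase (*Lox*) one of 0.40, whereas the lysyl oxidase-like genes *Loxl3* and *Loxl1* had -0.29 and -0.35. The lowest edgeR adjusted p of these 4 was 0.447. After the GC correction the log2 fold changes were 0.36 for *Cp*, 0.28 for *Lox*, -0.20 for *Loxl3* and -0.23 for *Loxl1*. None of 11 lipoylation and pyruvate dehydrogenase genes was at an unadjusted p under 0.05, nor, of 15 cytochrome c oxidase genes, were any but 1 higher and 1 lower. The medians were 0.01 and -0.05.

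Of 19 metallothionein and zinc transporter genes tested, 5 were higher and 0 lower at an unadjusted p under 0.05 (5.92% and 4.47% of all genes), with a median of 0.08 against 0.01 over all genes. Only 1 was higher at that p without NT replicate 2, and without Cu replicate 1 there were 2 higher and 1 lower. *Mt1* was at 83.2 and 61.0 CPM with Cu and 53.6 and 61.5 CPM in NT, and the lower Cu library lay below the higher NT library. Its log2 fold change was 0.32 ± 0.15 (SE) at an edgeR adjusted p of 0.494, and 0.46 ± 0.10 (SE) at an edgeR adjusted p of 0.243 after the GC correction. The zinc exporter *Slc30a1* was at 13.6 and 12.7 CPM with Cu and 10.5 and 10.7 CPM in NT (0.30 ± 0.12 SE, adjusted p of 0.479 in edgeR). The transporters *Slc30a4* and *Slc39a6* had log2 fold changes of 0.52 and 0.22, with edgeR adjusted p of 0.462 and 0.476. After the GC correction their values were 0.30 and 0.25.

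Against Zn, 4 of 15002 genes were DEGs (0.0267%), 1 higher with Cu (0.00667%) and 3 lower (0.02%). At an unadjusted p under 0.05 there were 3080 genes (20.5%), 1543 higher with Cu (10.3%) and 1537 lower (10.2%). All 4 DEGs belong to metal handling. *Mt2* was at 27.6 and 24.8 CPM with Cu and 199.9 and 195 CPM with Zn, and the log2 fold change was -2.92 ± 0.10 (SE) at an edgeR adjusted p of 0.000108. *Mt1* was at 83.2 and 61.0 CPM with Cu and 316 and 291 CPM with Zn (-2.08 ± 0.15 SE, adjusted p of 0.0120 in edgeR), and *Slc30a1* was at 13.6 and 12.7 CPM with Cu and 30.3 and 27.7 CPM with Zn (-1.15 ± 0.11 SE, adjusted p of 0.0462 in edgeR). *Slc39a10*, a zinc importer named here because it was called, was higher with Cu, at 44.2 and 39.8 CPM against 18.9 and 18.8 CPM with Zn (1.16 ± 0.12 SE, adjusted p of 0.0492 in edgeR). The NT libraries of *Slc39a10* were at 37.7 and 31.7 CPM, closer to Cu than to Zn. Without either Zn replicate, *Slc30a1* and *Slc39a10* were no longer called, with edgeR adjusted p of at least 0.504, and the number of DEGs against Zn was 986 without Cu replicate 2 and 23 without Cu replicate 1.

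The promoter of *Mt2* is shown because this gene separates Cu, Zn and NT most widely among the metallothionein genes tested. The MRE core TGCNCNC, searched on both strands, was in 51.0% of all 32851 promoters and in 20 of the 28 promoters (71.4%) found for the metallothionein and zinc transporter list. The *Mt2* promoter (chr8:94172368-94172667, + strand, RefSeq GRCm38.p6) held 6 matches, in capitals, 5 before the start and 1 after it.
Mt2: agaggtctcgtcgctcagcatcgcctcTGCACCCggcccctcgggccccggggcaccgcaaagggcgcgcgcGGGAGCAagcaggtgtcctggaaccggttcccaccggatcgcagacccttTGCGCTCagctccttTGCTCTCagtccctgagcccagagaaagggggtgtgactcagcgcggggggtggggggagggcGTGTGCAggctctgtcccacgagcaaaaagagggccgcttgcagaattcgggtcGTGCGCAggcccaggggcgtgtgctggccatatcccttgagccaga

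Extracellular matrix genes lay on both sides of 0. Of 51 tested, 1 was a DEG (*Islr*), 7 were higher and 6 lower at an unadjusted p under 0.05 (5.92% and 4.47% of all genes), and the median was -0.02, or 0.03 after the GC correction. The basement membrane genes *Nid1* and *Col4a1*, a type IV collagen, were at the higher end, and *Col4a1* was at 540.5 and 617 CPM with Cu and 411 and 472 CPM in NT (0.39 ± 0.11 SE, adjusted p of 0.447 in edgeR). The fibrillar collagen gene *Col1a1* was at 32.0 and 33.1 CPM with Cu and 42.4 and 41.7 CPM in NT (-0.37 ± 0.09 SE, adjusted p of 0.447 in edgeR). The groups of neither gene overlapped, which held for 17.1% of all genes with Cu above and 18.5% with Cu below. Neither gene passed the threshold in scr. In the mean of the KD lines both were DEGs, *Col4a1* higher by 0.40 and *Col1a1* lower at -0.17 (edgeR adjusted p = 0.000559 and 0.0472). Of the 51 matrix genes, 10 were higher and 12 lower as DEGs there, against 8.27% and 7.1% of all genes. Of 27 adhesion receptor genes 2 were higher and 4 lower at an unadjusted p under 0.05, with a median of -0.07.

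Of 44 lysosomal genes tested, 1 was a DEG (*Gpr137b*), and 4 were higher and 0 lower at an unadjusted p under 0.05, against 5.92% and 4.47% of all genes. After the GC correction 16 were higher and 1 lower at that p, against 6.58% and 3.7% of all genes, and the median was 0.11 against 0.04 over all genes in that fit. Without the correction 9 were higher and 0 lower at that p without Cu replicate 2, and 7 were higher and 1 lower without Cu replicate 1. *Gpnmb*, a lysosomal glycoprotein, was at 98.2 and 83.3 CPM with Cu and 65.2 and 71.8 CPM in NT (0.40 ± 0.11 SE, adjusted p of 0.447 in edgeR). *Rragd*, a Rag GTPase that recruits mTORC1 to the lysosome, was at 28.2 and 25.6 CPM with Cu and 21.4 and 20.5 CPM in NT (0.36 ± 0.11 SE, adjusted p of 0.447 in edgeR). *Lamp2*, with a GC content of 38.7%, was at 248 and 251 CPM with Cu and 216 and 197 CPM in NT (0.27 ± 0.08 SE, adjusted p of 0.447 in edgeR). Its Zn libraries were higher still, both at 307 CPM. After the GC correction the values were 0.45 for *Gpnmb*, 0.31 for *Rragd* and 0.002 for *Lamp2*. The Cu and NT groups of *Gpnmb*, *Rragd* and *Lamp2* did not overlap, and 17.1% of all genes had both Cu libraries above both NT libraries.

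Immediate early genes, which growth factors and stress induce within minutes, had 7 members higher and 1 lower of 25 tested at an unadjusted p under 0.05, against 5.92% and 4.47% of all genes. After the GC correction 11 were higher and 0 lower, against 6.58% and 3.7%. The median was 0.13, or 0.22 after the GC correction. The zinc finger factor *Egr1* was at 42.5 and 34.5 CPM with Cu and 25.3 and 24.6 CPM in NT, and its Zn libraries, at 39.4 and 44.5 CPM, were as high. Its log2 fold change was 0.62 ± 0.13 (SE) at an edgeR adjusted p of 0.394. The ERK phosphatase *Dusp6* (0.42), *Klf6* (0.39) and the AP-1 subunit *Fosl1* (0.52) had positive log2 fold changes too, with edgeR adjusted p from 0.433 to 0.447. All 4 genes were DEGs with Cu, and higher, in the mean of the KD lines. Of the whole list of 25, 10 were higher and 1 lower as DEGs there, against 8.27% and 7.1% of all genes.

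Muscle genes gave no DEG. Of 16 myogenic regulator genes tested, 2 were higher and 4 lower at an unadjusted p under 0.05, and of 28 muscle differentiation genes 0 were higher and 6 lower, against 5.92% and 4.47% of all genes. The medians were -0.21 and -0.21, and -0.16 and -0.11 after the GC correction. Without Cu replicate 1 there were 10 differentiation genes lower and 1 higher at that p. *Hey1*, a Notch target that restrains differentiation, was at 16.9 and 14.4 CPM with Cu and 25.1 and 28.4 CPM in NT (-0.78 ± 0.12 SE, adjusted p of 0.239 in edgeR). *Myod1*, the determination factor of the lineage, was at 89.3 and 66.9 CPM with Cu and 107 and 109 CPM in NT (-0.47 ± 0.14 SE, adjusted p of 0.447 in edgeR). *Id3*, which encodes an inhibitor of MYOD1, had a log2 fold change of -0.50. The contractile genes *Tnnt1* (-0.58), *Tnni2* (-0.75) and *Mylpf* (-0.50) and the calcium pump gene *Atp2a1* (-0.55) had edgeR adjusted p of 0.447 each. In the mean of the KD lines 12 of the 28 differentiation genes were DEGs and lower and 1 was higher, against 7.1% lower and 8.27% higher of all genes there.

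Cell cycle genes gave no DEG either. Of 35 genes of G2 and mitosis 0 were higher and 9 lower at an unadjusted p under 0.05 (5.92% and 4.47% of all genes), with a median of -0.06 and of -0.14 after the GC correction. The count was 4 lower and 0 higher without Cu replicate 2 or NT replicate 2, 4 lower and 4 higher without NT replicate 1, and 12 lower and 6 higher without Cu replicate 1. The spindle checkpoint gene *Bub1b* was at 143 and 139 CPM with Cu and 172 and 178 CPM in NT (-0.31 ± 0.08 SE, adjusted p of 0.447 in edgeR). The centromeric histone gene *Cenpa*, the anaphase activator gene *Cdc20* and the phosphatase gene *Cdc25b* had log2 fold changes of -0.30, -0.31 and -0.29. Against Zn, 27 of the 35 were lower with Cu at that p and 0 higher (10.2% and 10.3% of all genes), with a median of -0.46 against -0.02 over all genes. In the mean of the KD lines 2 were higher and 1 lower as DEGs with Cu, against 8.27% and 7.1% of all genes there. Of 38 S phase genes 1 was higher and 2 lower at that p in scr, and of 20 cell cycle inhibitor and p53 target genes 4 were higher and 1 lower, with 0 higher without NT replicate 2 and 7 without NT replicate 1. In the mean of the KD lines 18 of the 38 S phase genes were DEGs and higher with Cu and 0 were lower, beside the same shares of all genes, 8.27% and 7.1%.

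Of the 10 protein-coding transcripts of the mitochondrial genome that were tested, 7 were higher and 0 lower at an unadjusted p under 0.05 (5.92% and 4.47% of all genes), with a median of 0.47. Without NT replicate 2, 4 were higher and 0 lower. *mt-Nd5* was at 1802 and 1282 CPM with Cu and 1055 and 889 CPM in NT (0.67 ± 0.17 SE, adjusted p of 0.447 in edgeR), and *mt-Nd4*, *mt-Cytb* and *mt-Nd6* had 0.49, 0.45 and 0.40. These genes have a median GC content of 37.4%, against 49.2% for all genes tested, and after the GC correction none of the 10 was at that p and the median was 0.24. Against Zn the uncorrected median was -0.81, with 1 gene higher and 7 lower with Cu at that p. The GC correction moved these values too, from -0.71 to -0.03 for *mt-Nd5*, from -1.01 to -0.20 for *mt-Nd4* and from 0.26 to 1.17 for *mt-Nd6*.

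The remaining lists at an unadjusted p under 0.05 were heat shock chaperones (2 higher and 0 lower of 19), ATF4 targets of the integrated stress response (1 and 1 of 29), proteasome subunits (0 and 0 of 31), sterol synthesis (3 and 1 of 24) and glycolysis (2 and 1 of 21), with medians between -0.10 and 0.07, beside 5.92% and 4.47% of all genes. After the GC correction 6 glycolysis genes were higher and 0 lower with a median of 0.15, against 6.58% and 3.7% of all genes. In the mean of the KD lines 15 of the 21 glycolysis genes were DEGs and higher, against 8.27% of all genes there. Without NT replicate 1, 1 proteasome gene was higher and 8 were lower, and heat shock genes ranged from 0 to 5 higher with 1 library left out.

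The genes with the largest rises at an unadjusted p under 0.05, a mean of at least 5 CPM and no overlap between the groups were *Gpr137b*, *Mmp12*, *Gsta4*, *Atp13a4*, *Slc7a11*, *Gpbp1*, *Ccne2* and *3830403N18Rik*. *Mmp12*, a macrophage elastase of the matrix metalloproteinase family, was at 54.6 and 43.5 CPM with Cu, 27.8 and 20.8 CPM in NT and 48.8 and 44.2 CPM with Zn (1.02 ± 0.17 SE, adjusted p of 0.254 in edgeR). *Atp13a4*, a P5-type ATPase, was at 10.5 and 10.7 CPM with Cu, 4.89 and 5.97 CPM in NT and 5.89 and 5.91 CPM with Zn (0.96 ± 0.16 SE, adjusted p of 0.254 in edgeR). *Gpbp1* (0.91), *Ccne2*, cyclin E2 (0.90), and *3830403N18Rik* (0.88) have a GC content of at most 41.0% and were higher still with Zn, and their corrected log2 fold changes were 0.68, 0.48 and 0.44. The largest falls by the same rule were rRNA-derived, mitochondrial rRNA or otherwise high in the NT libraries of scr: *Gm15564*, *Gm24187*, *Mir6236*, *Gm10800*, *Gm23935*, *Lars2*, *CT010467.1* and *mt-Rnr1*.

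**Figure D5:**
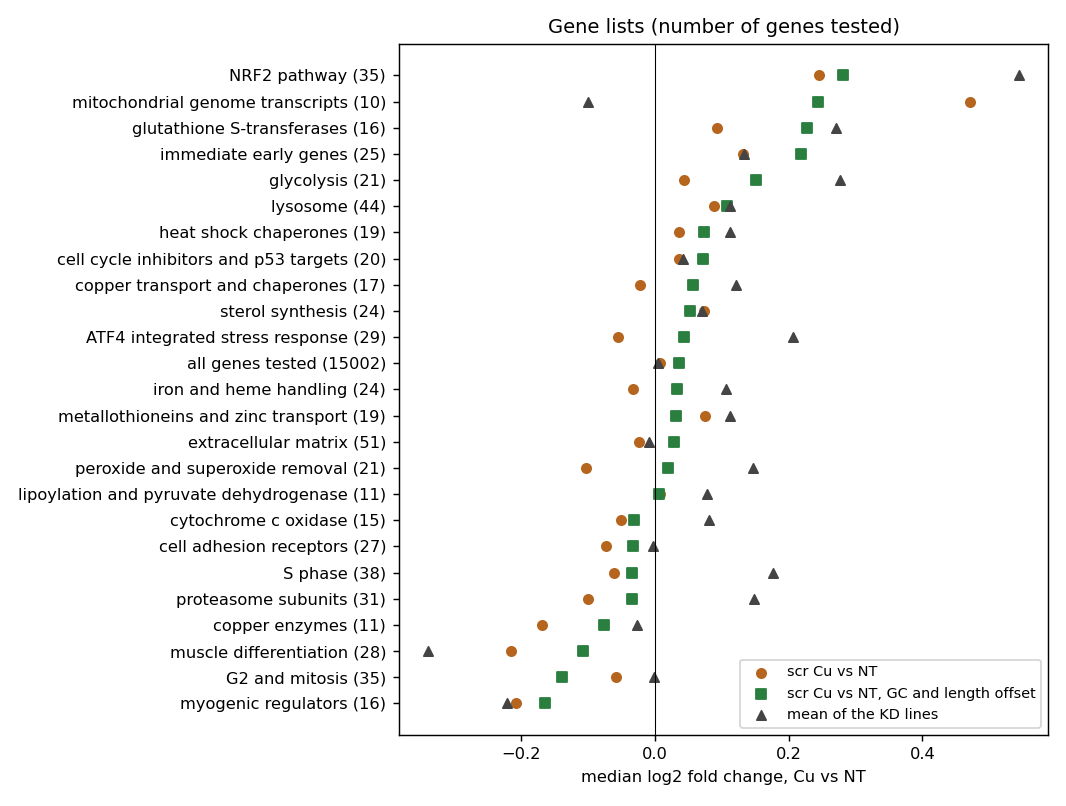
Median log2 fold change with Cu (x axis) of gene lists and of all genes tested, with the number of genes tested in scr in brackets, for scr before and after the GC and length correction and for the mean of the KD lines. The cell type marker lists, the rRNA-derived and structural RNA list and the mitochondrial rRNA list are not drawn. The NRF2 list has the highest corrected scr median, 0.28, and the highest KD median, 0.54.

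The Cu and NT libraries of the KD lines show which scr changes recurred in other samples. In the mean of the 3 KD lines Cu gave 2494 DEGs among 16225 genes (15.4%), of which 1342 were higher (8.27%) and 1152 lower (7.1%). After the GC correction 1098 were higher (6.91%) and 920 lower (5.79%). The lines differed in their own counts, with 871 higher and 923 lower in *Baf180* KD, 33 and 15 in *Baf250a* KD and 45 and 43 in *Brd9* KD cells, so the mean does not stand for calls in every line. Of the 886 genes higher in scr at an unadjusted p under 0.05 and tested in both fits, 105 (11.9%) were DEGs in the same direction in the KD lines and 123 (13.9%) in the opposite one. Those 105 were 7.89% of the 1330 KD genes. After the GC correction of both fits, 217 of 966 (22.5%) recurred in the same direction, 19.9% of the KD genes, and 26 (2.69%) in the opposite one. For genes lower in scr the shares were 18% in the same and 5.09% in the opposite direction before the correction, and 28.8% and 3.33% after it, where 6% of all genes were lower in the KD lines.

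Whether the Cu response differed between scr and the mean of the KD lines was tested as an interaction term over 16225 genes. It differed for 5 genes (0.0308%), 3 with the higher value in scr (0.0185%) and 2 with the lower (0.0123%), and 4147 had an unadjusted p under 0.05 (25.6%), a number that was 2371 after the GC correction and 1487 without NT replicate 2. *Islr* was lower with Cu in both and more so in scr, with a difference of -0.85 (SE 0.12, edgeR adjusted p = 0.0225). *Wnt4*, a secreted WNT ligand, was at 10.2 and 10.1 CPM with Cu and 10.7 and 13.8 CPM in NT in scr. The groups did not overlap, with Cu below, as in 18.5% of all genes tested in scr. The log2 fold change of *Wnt4* was -0.28 ± 0.15 (SE) at an edgeR adjusted p of 0.531 in scr. In the KD lines it was 0.95 ± 0.09 (SE) at an edgeR adjusted p of 1.22e-05. The difference was -1.26 (SE 0.17, edgeR adjusted p = 0.0225). *Kcnj2*, a potassium channel, *Lifr*, the receptor of leukemia inhibitory factor, and *Pappa*, a protease of insulin-like growth factor binding proteins, were DEGs and lower in the KD lines (-0.62, -0.40 and -0.46). Their values in scr were 0.30, 0.22 and 0.29, none of them past the threshold. After the GC correction *Wnt4*, *Islr* and *Pappa* were still called, *Kcnj2* and *Lifr* were not, and *Gclm*, the modifier subunit of glutamate-cysteine ligase, and *Haus8*, a subunit of the augmin complex of the spindle, were called in addition, both named after their values were seen. The number of genes edgeR called was 0 without Cu replicate 2, where 2473 had an unadjusted p under 0.05, 1 without NT replicate 2, 2452 without Cu replicate 1 and 2237 without NT replicate 1. The difference for *Gpr137b* was 0.40 (edgeR adjusted p = 0.0609), for *Gsta4* -0.20 (adjusted p = 0.331) and for *Nqo1* -0.48 (adjusted p = 0.0608).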

How the data were processed

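RNA sequencing libraries of 12 groups, 2 per group, were measured. The scr comparisons were fitted on the 6 scr libraries, and those with the KD lines on the 16 Cu and NT libraries of all lines. Per the methods, the authors depleted rRNA by RNase H, prepared strand-specific libraries, aligned reads to mm10 with STAR and deposited counts of uniquely mapped read pairs per gene. These deposited counts (55291 symbols) are unnormalized. A further 14 deposited tables of the authors' own DESeq2 comparisons hold fold changes and p-values and were not used. As only unique pairs were counted, levels of near-identical copies are uncertain.

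Genes kept by filterByExpr were normalized by TMM and tested with edgeR 4.0.16 (R 4.3.3) by quasi-likelihood with Benjamini-Hochberg adjustment at 0.05, 15002 genes in scr. DESeq2 1.42.0 was an alternative. GC content and transcript length, from GENCODE M21, were removed per library by splines of 5 degrees of freedom for 14705 genes. CPM were computed after TMM. Data were simulated for the 6 scr libraries, Zn included, without differences in GC slope or rRNA content, unlike the real libraries. Of 200 genes changed by a log2 fold of 1, 128 (64%) were called in Cu against NT among 14702 genes. Beside these 128 calls there were 21 false ones. Genes named in the text are the DEGs, those of the GC-corrected fit, the members of lowest p in each list (at most 4), *Gsta4*, *Nqo1*, *Islr* and 6 metal handling genes that the study names, genes called in the interaction, and the 8 largest rises and falls with an unadjusted p under 0.05, a mean of at least 5 CPM and no overlap. Exceptions are named as such. The members and lists were chosen with earlier results of these data known. Deviations of same-numbered libraries were correlated at -0.43 for Cu and NT, 0.41 for Cu and Zn and -0.28 for NT and Zn over 11333 genes. With 2 pairs per comparison and no label that ties a number to a shared batch, replicate numbers were not used as pairs.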

Additional observations from a re-analysis of the deposited data

Results flagged for a closer look

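The response to Cu differed between scr and the mean of the KD lines for 5 of 16225 genes by the interaction term. On the log2 scale the difference, scr minus KD, was -1.26 for *Wnt4*, -0.85 for *Islr*, 0.90 for *Kcnj2*, 0.74 for *Pappa* and 0.60 for *Lifr*. Among the single KD lines the response of *Pappa* ranged from -0.91 in *Baf180* to -0.04 in *Baf250a* KD cells, and that of *Wnt4* from 0.79 in *Brd9* to 1.05 in *Baf180* KD cells. No group held the 4 to 10 libraries that a search for single outlying libraries needs.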

How the results depend on the processing

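The number of DEGs for Cu against NT in scr, 5 in the report, was 61 with DESeq2 (26 higher and 35 lower), 758 when every gene with at least 1 count was tested, 57 when all 24 libraries were fitted together, 10 after the GC and length correction, and 3 with robust dispersion estimates, with rRNA-derived genes removed, with a minimum fold change of 1.5 or with only the 4 libraries compared. Leaving out 1 library at a time gave 6 to 143. With the replicate number as a block 6 were called, of which 4 were shared with the report and *Islr* was not, and with the block and the GC correction 11. With the numbers crossed, a fit chosen after seeing the data because same-numbered Cu and NT libraries deviated in opposite directions, 18 were called, and 19 with the GC correction. The numbers are not known to pair the samples. All 5 DEGs were kept with DESeq2, with RLE size factors, in both fits with fewer or no filters and after the GC correction. *Gpr137b* and *Islr* were lost with the minimum fold change and with only the 4 libraries compared, *Gm15564* and *Lars2* with robust estimates, and *Mt2* and *Gas1*, called after the GC correction, with the block added to it.

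Against Zn the 4 DEGs became 707 with DESeq2, 1653 with every gene tested, 1282 with all 24 libraries, 13 after the GC correction, 2 with the replicate block, 2 with the minimum fold change, 1 with only the 4 libraries compared, and 2 to 986 with 1 library left out. The 5 genes whose response differed between scr and the KD lines became 1290 with DESeq2, 3 with RLE size factors, 1973 with every gene tested, 541 with all 24 libraries, 10 with the replicate block, 0 with the minimum fold change in edgeR, where 576 had an unadjusted p under 0.05, and 0 to 2452 with 1 library left out. For the mean of the KD lines, 2494 DEGs became 6 with the minimum fold change and 2397 with the replicate block. The cause of these differences was not tested, except that a minimum fold change is a stricter test by construction.

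Among the genes named in the text other than *Lamp2*, the sign of the log2 fold change between Cu and NT differed from that of the report for *Slc31a1* (-0.0433 after the GC correction, -0.0471 with the GC correction and replicate block, -0.0415 with the GC correction and crossed block, and -0.0470 to 0.215 with 1 library left out) and *Mtf1* (-0.0174 to 0.100 with 1 library left out). The sign of the list median was the same in all alternatives tried for the NRF2 list, from 0.19 to 0.28. The medians of the lists for copper transport, lipoylation, peroxide and superoxide removal, heat shock chaperones, ATF4 targets, iron and heme, extracellular matrix, lysosome, S phase, G2 and mitosis, cytochrome c oxidase, sterol synthesis and glycolysis changed sign in at least 1 alternative. The planned legacy option of edgeR is the default of the version used and so gave the values in the report, and the newer option, added after seeing the data, gave 6 DEGs against NT and 4 against Zn. With 2 libraries per group, a fit without 1 library assumes that the lone library varies like the other groups, and the depth of 16520069 to 44746359 counts limits genes of low level.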
